A study of Homo sapiens with 2 samples.

Results

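The 10 genes described here belong to the integrated stress response and to serine and folate metabolism: the transcription factors ATF4, ATF5 and DDIT3, the stress-induced genes TRIB3 and CHAC1, the asparagine synthetase gene ASNS, the serine synthesis genes PHGDH and PSAT1, and the mitochondrial folate genes SHMT2 and MTHFD2. They were chosen by name, with earlier results of these data known. All their transcripts were taken from tables of estimated counts per transcript, which gave 10 of 59026 genes matched to the GENCODE annotation, release 44, and 117 transcripts listed out of 138 annotated for these genes. The RNA came from HEK293 Flp-In T-Rex cells, an established human embryonic kidney line with a defined site for inserting a transgene, grown in high glucose medium with foetal calf serum and given no treatment. Total RNA was depleted of ribosomal RNA and sequenced as 2 libraries of 1 group, replicate 1 and replicate 2. The labels do not say whether these were separate cultures, so the spread between them may be technical.

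In the integrated stress response, kinases that sense different kinds of stress phosphorylate the translation initiation factor eIF2. General translation falls, while mRNAs with upstream open reading frames in their 5′ leader, such as that of ATF4, are translated more. ATF4 then switches on genes for amino acid synthesis and transport, among them the serine synthesis pathway and the mitochondrial folate enzymes, which carry carbon units from serine. Defects of mitochondrial translation are a known trigger of this response. The libraries here held untreated cells, so the values are resting levels of mRNA and say nothing of translation or of induction.

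The libraries summed to 25158962 and 27143860 estimated counts, of which the 10 genes took 0.206% and 0.193%. Of the 117 transcripts, 64 were above 0 in both libraries, 21 were at 0 in one of them and 32 were at 0 in both. All 6 of the markers listed for HEK293 were detected, from 14.5 normalised counts for NEFM to 2267 for LIN28B. Of 6 markers of blood, liver, fibroblast, endothelial and pancreatic cells, 5 were at 0 in both libraries and COL1A2 had 0.927 normalised counts in replicate 2. In bulk RNA of this kind, fewer cells with a transcript and less of it per cell cannot be told apart.

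Genes were compared by a per-length level: the estimated counts of each transcript divided by its annotated length, summed over the gene, and scaled to 1000000 per library. All ± values are SD with n = 2. ATF4 was the highest of the 10 genes, with a mean level of 410 ± 30.04, above 99.4% of the 26370 genes that had 1 or more normalised counts in each library. PHGDH at 180 ± 18.7, ASNS at 178 ± 37.6 and SHMT2 at 171 ± 12.6 came next, followed by MTHFD2 at 116 ± 24.1 and PSAT1 at 68.0 ± 8.55. The other transcription factors and stress-induced genes were lower: DDIT3 at 17.4 ± 1.75, TRIB3 at 13.5 ± 1.94, CHAC1 at 5.23 ± 1.496 and ATF5 at 1.55 ± 0.0107.

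Each pair of genes was called different when their order was the same in replicate 1 as in replicate 2 and their means lay further apart than the sum of their SDs. This held for 42 of the 45 pairs. The remaining 3 were the pairs among PHGDH, ASNS and SHMT2, which the rule did not separate. ASNS was above PHGDH and SHMT2 in replicate 1 and below them in replicate 2. PHGDH was above SHMT2 in both libraries, with ratios of 1.03 and 1.07, but by less than the sum of their SDs. Between the other neighbours in the order, the ratio of mean levels was 2.28 for ATF4 over PHGDH, 1.47 for SHMT2 over MTHFD2, 1.71 for MTHFD2 over PSAT1, 3.92 for PSAT1 over DDIT3, 1.29 for DDIT3 over TRIB3, 2.57 for TRIB3 over CHAC1 and 3.38 for CHAC1 over ATF5. Some of these calls depended on the length used. With gene sums divided by the union of exon lengths, 40 pairs were called: the levels became 36.01 for PHGDH, 84.7 for ASNS, 84.9 for SHMT2, 64.8 for MTHFD2 and 82.1 for PSAT1. In mean level, PSAT1 then stood above PHGDH and MTHFD2 (log2 ratios to PSAT1 of -1.19 and -0.34, from 1.40 and 0.77), and MTHFD2 stood above PHGDH (log2 ratio of PHGDH to MTHFD2 of -0.85, from 0.63). The mean level of PHGDH also lay below those of ASNS and SHMT2. Among pairs whose means kept their order, the calls of ASNS over PSAT1 (0.044), SHMT2 over PSAT1 (0.048) and ASNS over MTHFD2 (0.39) were lost. By summed normalised count without length, 41 pairs were called, ASNS over MTHFD2 (0.44) and PHGDH over MTHFD2 (0.11) were lost, and DDIT3 over TRIB3 went from 0.37 to -0.96. SHMT2 then stood above PHGDH in both libraries, at 7819 and 8081 normalised counts against 6431 and 7059. On protein-coding transcripts alone, SHMT2 over MTHFD2 went from 0.55 to -0.087, SHMT2 over PSAT1 from 1.33 to -0.52 and MTHFD2 over PSAT1 to -0.43. The order among PHGDH, ASNS, SHMT2, MTHFD2 and PSAT1 was therefore not the same under these settings, while ATF4 lay above and the other 4 genes below them. With 2 libraries an exact sign-flip test cannot go below p = 0.5, so no p-value is given for any comparison.

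**Figure D1:**
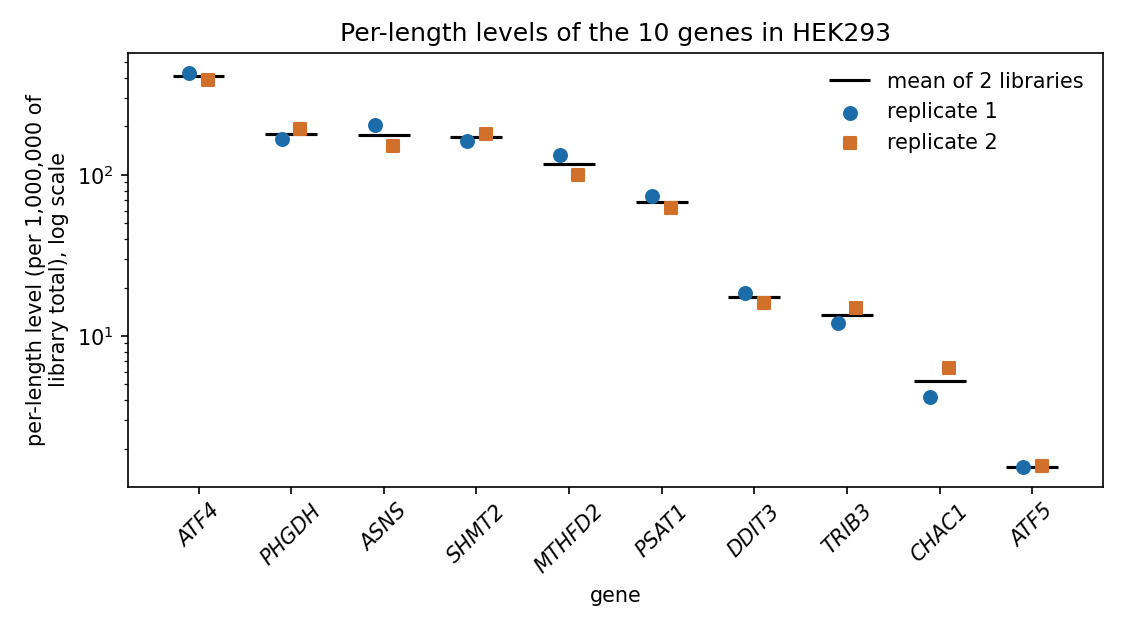
Per-length level of each of the 10 genes (per 1000000 of the library total, log scale) in replicate 1 (circles) and replicate 2 (squares), with the mean of the 2 libraries as a bar. ATF4 lies highest at a mean of 410 and ATF5 lowest at 1.55, and the points of PHGDH, ASNS and SHMT2 overlap.

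ATF4, the transcription factor at the centre of the response, lies at chr22:39519695-39522683 on the plus strand (GRCh38). It had 17955 normalised counts in replicate 1 and 15963 in replicate 2, and levels of 431 and 389. The transcript ATF4-202 held 96.1% of the gene's estimated counts in replicate 1 and 94.4% in replicate 2, and all 3 listed transcripts carry the full coding sequence of 351 codons. The counts were made with another version of ATF4-202 than that of GENCODE release 44, whose sequence is used here. Only 3 of the 11 annotated ATF4 transcripts are listed. ATF4-206, the representative transcript in the MANE Select set, is not among them and has no count. The shares of ATF4 are therefore shares among the 3 listed transcripts, and any reads from ATF4-206 could only be given to those. The MANE Select transcripts of the other genes were also counted in another version, so their lengths, ends and the stretches they share with other transcripts may differ from those given. Its 4 processed pseudogenes held counts equal to 1.36% and 1.33% of those of ATF4.

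ATF5 is a related factor encoded at chr19:49928702-49933935 on the plus strand and also subject to upstream reading frames. It had 74.6 and 65.2 normalised counts, and its levels were 1.54 and 1.55. The ratio of the mean levels of ATF4 and ATF5 was 265. The estimated counts of ATF5 were 70.5 and 70.3, with exact 95% Poisson intervals of 55.5 to 89.6 and 54.6 to 88.4 that cover counting error alone. ATF5-201, its MANE Select transcript, took 91.0% and 82.1%. ATF5 overlaps NUP62, on the opposite strand, by 1063 bases, and NUP62 had 1867 and 2325 normalised counts. The strand setting of the counting is not given in the sources used here, so reads in the overlap may belong to either gene.

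The upstream start codons of these genes are shown because they are the sequence feature through which the response acts on translation. Among the 9 listed MANE Select leaders of the 10 genes, 3 hold an upstream ATG, those of ATF5, DDIT3 and TRIB3, against 42.5% of 18763 MANE Select leaders over all genes. ATF4 is the gene left out, since its MANE Select transcript is not listed. All listed 5′ leaders of ATF4, ATF5 and DDIT3 hold at least 1, so 100% of their counts fell on such transcripts in both libraries. ATF5-201 has 2 upstream ATGs: a frame of 3 codons from 246 bases before the coding start, and a frame of 59 codons from 124 bases before it that runs past the coding start. ATF4-202 has 6. Among them are a frame of 3 codons from 292 bases before the start and a frame of 63 codons from 188 bases before it that runs past the start and holds a further ATG at 149 bases. The other 3 open frames of 1, 5 and 5 codons, from 354, 193 and 121 bases before the start. These frames depend on the transcript. In ATF4-203 the next exon starts 96 bases further downstream than in ATF4-202, at the same base as in ATF4-206. There a frame of 59 codons from 97 bases before the start runs past it. ATF4-203 held 0.0669% and 0.132% of the counts. In DDIT3-201 the ATGs 143 and 134 bases before the coding start lie in the same frame, with 34 and 31 codons to a shared stop within the leader, and a frame of 73 codons from 32 bases before it overlaps the coding sequence. The upstream ATG stands in capitals:
ATF4-202, 3 codons: acggccaccATGgcgt
ATF5-201, 3 codons: gccccggccATGgctc
ATF4-202, 63 codons: agccatggcATGgccg
ATF5-201, 59 codons: gctgcagccATGgagt
DDIT3-201, 34 codons: gagcgtatcATGttaa
DDIT3-201, 31 codons: atgttaaagATGagcg
DDIT3-201, 73 codons: tgaaagcagATGtgct
The other genes differed widely in this feature. Transcripts with an upstream ATG held 99.6% and 100% of the counts of TRIB3, 28.6% and 30.4% of SHMT2, 7.11% and 10.0% of ASNS, 6.05% and 11.8% of PHGDH, 2.33% and 8.61% of CHAC1, 0.234% and 0.141% of MTHFD2, and 0% of PSAT1. These are shares of all counts of a gene, but transcripts without a defined coding sequence or with an incomplete coding start were not examined. Among those were PHGDH-227 (16.3% and 16.0%), PHGDH-230 (14.2% and 14.6%) and SHMT2-233 (6.33% and 6.57%). The remaining counts are thus not all on transcripts that lack an upstream ATG. In TRIB3-201 both upstream frames, of 77 and 14 codons, end before the coding start.

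DDIT3 encodes CHOP, a factor tied to cell death under lasting stress, at chr12:57516588-57521737 on the minus strand. It had 479 and 403 normalised counts, and levels of 18.6 and 16.1. Its transcripts were divided differently in the libraries: DDIT3-201 took 46.1% in replicate 1, with an exact 95% Clopper-Pearson interval for counting error of 41.5% to 50.9%, and 72.5% in replicate 2, with one of 68.1% to 76.7%. DDIT3-202, DDIT3-204 and DDIT3-205 took 16.5%, 15.5% and 12.4% in replicate 1 and 8.59%, 9.36% and 9.54% in replicate 2. DDIT3-201 has no stretch of 50 bases that is absent from all other listed DDIT3 transcripts, so its share rests on how the estimation divides shared reads. The share on transcripts whose upstream frame overlaps the coding start was 55.7% and 72.5%. DDIT3 overlaps MARS1 on the opposite strand by 982 bases, and MARS1 had 3901 and 3882 normalised counts.

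TRIB3, a pseudokinase that binds and restrains ATF4, had 786 and 931 normalised counts and levels of 12.1 and 14.8. TRIB3-201 took 99.6% and 96.4%. Its mean level was 0.360 of that of its paralogue TRIB1, while the libraries gave opposite orders for TRIB3 and TRIB2, with a ratio of means of 1.14. CHAC1, an enzyme that breaks down glutathione, had 173 and 249 normalised counts and levels of 4.18 and 6.29, and CHAC1-203 took 97.7% and 91.4%. CHAC1 lay 2.002-fold above its paralogue CHAC2, with a ratio of 1.45 in replicate 1 and 2.69 in replicate 2.

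ASNS makes asparagine from aspartate and is a standard marker of ATF4 activity. It had 9620 and 7281 normalised counts, and levels of 205 and 152. In replicate 1 it stood next to ATF4 at the top of the 10 genes, and in replicate 2 below PHGDH and SHMT2. The MANE Select transcript ASNS-202, with the full 561 codons, took 22.4% and 32.9%, while ASNS-206, annotated with 478 codons, led in both libraries at 47.3% and 35.6%. ASNS-213 followed at 18.3% and 15.8%. It belongs to the annotation class of nonsense-mediated decay (NMD), given to transcripts whose stop codon lies well upstream of the last exon junction. Its exon 9 runs 74 bases further at the start than in ASNS-202, and a stop after 401 codons lies 344 bases before the last junction. An lncRNA gene on the same strand, ENSG00000284707, overlaps ASNS over 20855 bases and had 296 and 589 normalised counts.

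PHGDH, the first enzyme of serine synthesis, had 6431 and 7059 normalised counts and levels of 166 and 193. PHGDH-202 led at 48.8% and 37.4%. It uses an acceptor for the last exon 19 bases upstream of that in MANE Select PHGDH-208, which leaves 532 codons against 533 and another C-terminal end. PHGDH-227 took 16.3% and 16.0%, and PHGDH-230, with no defined coding sequence, 14.2% and 14.6%. PHGDH-208 itself took 0.211% and 4.56%. It has no 50-base stretch of its own among the listed PHGDH transcripts.

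PSAT1, the next enzyme of the pathway, had 4173 and 3213 normalised counts and levels of 74.1 and 62.0. It has 2 listed transcripts. PSAT1-202, the MANE Select transcript of 370 codons, took 84.8% in replicate 1 and 71.9% in replicate 2, and PSAT1-201, which skips exon 8 of 138 bases and has 324 codons, took 15.2% and 28.1%.

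SHMT2 encodes the mitochondrial serine hydroxymethyltransferase, which passes a carbon unit from serine to folate. It had 7819 and 8081 normalised counts and levels of 162 and 180. SHMT2-231, of the NMD class, held 61.2% of its counts in replicate 1 and 58.2% in replicate 2, and NMD-class transcripts together held 80.6% and 74.98%. Protein-coding transcripts held 15.7% and 20.1%. MANE Select SHMT2-201 had 0.210% in replicate 1 and was listed at 0 in replicate 2, where a count of 0 limits the share to 0.0344% for counting error. SHMT2-201 has no 50-base stretch of its own, so an estimate of 0 may also come from how shared reads were divided, which that limit does not cover. SHMT2-231 differs from it at exon 4, chr12:57231713-57231917 on the plus strand, which is 4 bases longer and ends in a TGA stop after 171 codons instead of 504, 875 bases before the last junction. The ends differ as well: exon 1 has 53 bases against 101, and exon 12 has 493 against 702. The estimated share of SHMT2-231 may rest on these ends too. Of the 1855 stretches of 50 bases in SHMT2-231, 48 are in no other listed SHMT2 transcript, and the junction after exon 4 is the junction it does not share. The listed transcripts with the shorter exon, 24 of them, held 31.7% and 34.2% of the counts. Of the 35 listed SHMT2 transcripts, 18 have no stretch of their own, and these held 24.4% on average.

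MTHFD2 encodes the mitochondrial methylenetetrahydrofolate dehydrogenase and cyclohydrolase, which oxidises the unit that SHMT2 delivers. It had 7237 and 5251 normalised counts and levels of 133 and 99.4. Its counts were split between MTHFD2-205 (32.0% and 33.7%), MANE Select MTHFD2-201 (31.2% and 32.4%) and MTHFD2-202 (27.3% and 22.5%). MTHFD2-205 skips the exon chr2:74205705-74205889 of 185 bases and meets a stop after 37 codons, 590 bases before the last junction, and it too is of the NMD class. Transcripts that join the first exon to this exon held 63.3% and 57.8%.

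The exon junctions that set these transcripts apart are printed because each is found in no other listed transcript of its gene. They are not the only differences: the last exon has 1113 bases in PSAT1-202 and 474 in PSAT1-201, and 3487 in MTHFD2-201 and 663 in MTHFD2-205, and the estimated shares may rest on such ends too. The last 12 bases of the upstream exon stand in lower case and the first 12 of the next exon in capitals, in the sense of the transcript:
SHMT2-231: gggggccagtgaTCTCACCCACGG
MTHFD2-205: cgcggcagttcgGAATCAACAGTG
ASNS-213: tattttcacaagGATTGGAGAGGG
ASNS-206: gtttgagcccctATGCAACAGCAT
PHGDH-202: ctaccatgattgGAGTTTCTTCTA
PSAT1-201: aggattctacgtGTCTGTGGGAGG
PSAT1-202: aggattctacgtTTGTCCAGTGGA
The tga at the end of the upstream exon of SHMT2-231 is its stop codon, and PSAT1-201 and PSAT1-202 share the upstream exon and part at the junction. Reads over the junctions were not analysed here.

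**Figure D2:**
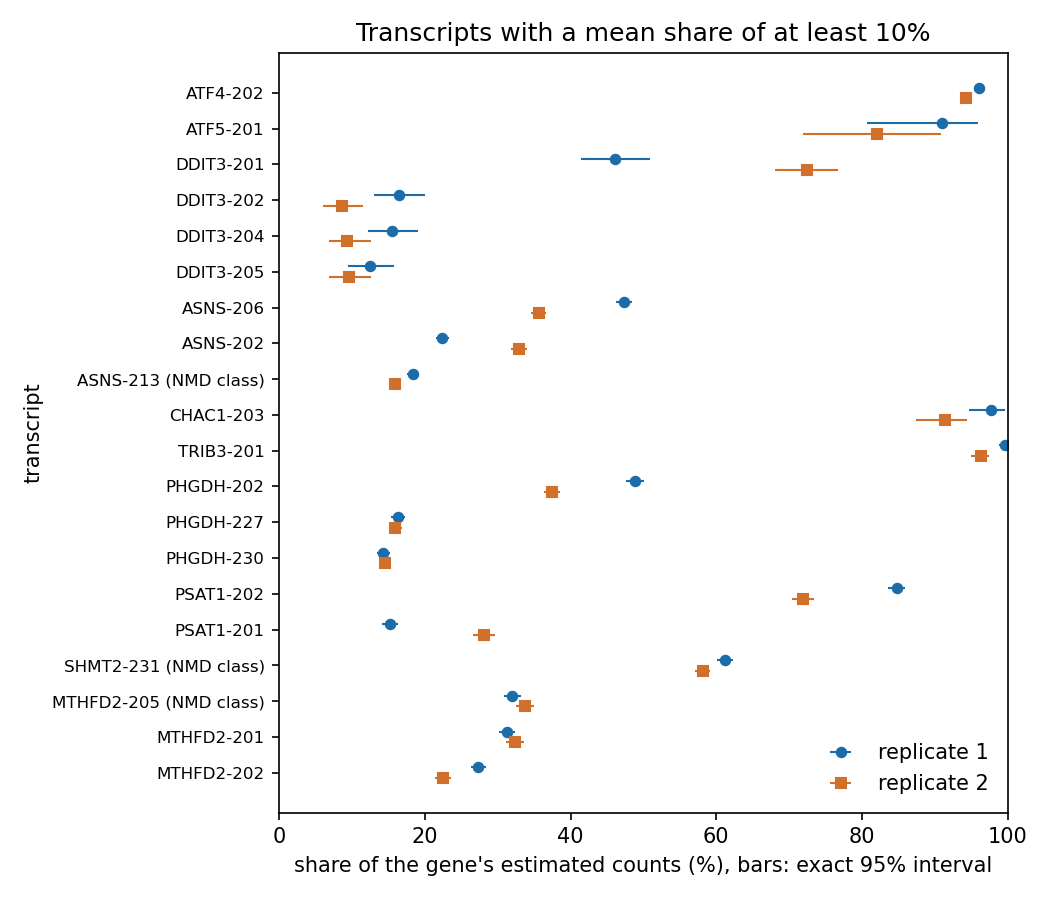
Share of the gene's estimated counts (percent) held by each transcript with a mean share of at least 10%, in replicate 1 (circles) and replicate 2 (squares); bars are exact 95% Clopper-Pearson intervals, which cover counting error only. DDIT3-201 held 46.1% in replicate 1 and 72.5% in replicate 2, and SHMT2-231, of the nonsense-mediated decay class, held 61.2% and 58.2%.

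By class, the counts of ATF4, ATF5, DDIT3, CHAC1, TRIB3 and PSAT1 fell entirely on protein-coding transcripts. The NMD class held a mean of 77.8% ± 4.01 in SHMT2, 39.3% ± 3.90 in MTHFD2, 17.1% ± 1.78 in ASNS and 5.00% ± 1.97 in PHGDH. Its share was lower than that of SHMT2 in 99.1% of the 12926 protein-coding genes with several transcripts and a mean of 10 or more normalised counts, and lower than that of MTHFD2 in 95.1%. An NMD transcript led in 2 of the 10 genes, SHMT2 and MTHFD2, against 4.56% of those genes. By counts the lead in MTHFD2 was narrow: 32.0% and 33.7% for MTHFD2-205 against 31.2% and 32.4% for the coding MTHFD2-201. NMD transcripts held over 50% of the counts in 1 of the 10, against 3.04%. Counted per length, the NMD share was 68.1% ± 6.17 in SHMT2 and 50.9% ± 3.53 in MTHFD2. These are classes of the annotation and estimates of how reads were divided, not measurements of decay.

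**Figure D3:**
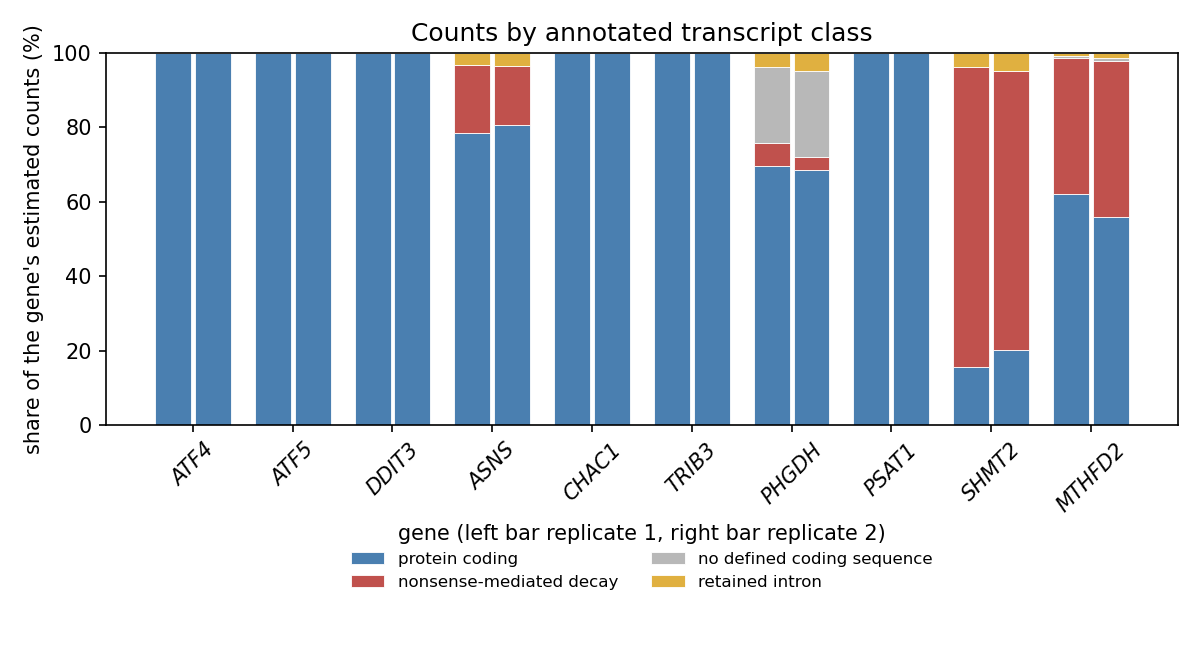
Share of the estimated counts of each gene (percent, left bar replicate 1, right bar replicate 2) by annotated transcript class. SHMT2 and MTHFD2 have the widest bands of nonsense-mediated decay transcripts, with means of 77.8% and 39.3%, and 6 of the 10 genes are protein coding throughout.

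The share of counts on transcripts with the full MANE Select coding sequence was also computed. It averaged 100% in ATF4, 98.0% ± 2.33 in TRIB3, 94.5% ± 4.44 in CHAC1, 86.6% ± 6.29 in ATF5, 78.4% ± 9.14 in PSAT1, 76.6% ± 6.34 in DDIT3, 34.6% ± 9.43 in ASNS and 31.8% ± 0.834 in MTHFD2. PHGDH had 0.211% in replicate 1 and 4.56% in replicate 2, and SHMT2 had 0.210% and 0%. A mean would rest mostly on replicate 2 in PHGDH and on replicate 1 alone in SHMT2. Over 13598 genes the median was 65.5%, with quartiles of 26.6% and 90.8%, and both values of PHGDH and of SHMT2 lay below the lower quartile.

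The mitochondrial enzymes were compared with their paralogues. SHMT2 lay 5.04-fold above SHMT1, its cytosolic counterpart, and MTHFD2 lay 22.9-fold above MTHFD2L and 3.02-fold above MTHFD1, the cytosolic enzyme. These 3 differences were larger than the spread between the libraries, as were 6 of all 7 paralogue pairs, with TRIB3 and TRIB2 as the exception. On coding transcripts alone, the log2 value of SHMT2 over SHMT1 went from 2.33 to 0.60 and no longer passed.

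The wider pathway was read from lists of 60 further genes. The eIF2 kinases and their relay from mitochondria had a median level of 21.4, with EIF2AK1, the kinase HRI, highest at 53.8 ± 4.61 and DELE1, which carries the mitochondrial signal to it, at 22.2 ± 1.08. EIF2AK2 (PKR) at 11.6 ± 1.80 and EIF2AK3 (PERK) at 3.77 ± 0.414 were the lowest. Among the subunits of eIF2 and eIF2B, EIF2S3 reached 130 ± 23.5 and EIF2S1 60.5 ± 10.8, with EIF2B5 at 21.0 ± 0.556 and EIF2B4 at 9.27 ± 0.923 the lowest. The subunits that direct the eIF2 phosphatase were at 23.5 ± 3.27 for PPP1R15B and 8.74 ± 0.902 for the stress-induced PPP1R15A. Of the partner transcription factors, CEBPG at 57.0 ± 9.06 and XBP1 at 30.8 ± 0.0985 were highest and JDP2 at 1.65 ± 0.239 and NUPR1 at 0.747 ± 0.450 lowest.

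Other ATF4 targets reached from near 0 to over 100. DDIT4, an inhibitor of mTORC1, stood at 116 ± 8.15 and ALDH18A1, which starts proline synthesis, at 97.7 ± 9.43, while the secreted stress factor GDF15 was at 0.945 ± 0.229 and FGF21 had 2 estimated counts in replicate 1 and was listed at 0 in replicate 2. The median of the 17 targets was 27.5, that of the 17 other serine and folate genes 29.9, and that of the 10 genes described here 92.2. With the union of exon lengths, a setting added for the lists after the data were seen, these medians were 23.1, 11.7 and 50.4. In the serine and folate list, the amino acid carrier SLC1A5 at 129 ± 9.74 and the mitochondrial serine carrier SFXN1 at 107 ± 1.51 were highest, and ALDH1L1 at 2.23 ± 0.121 and AMT at 1.39 ± 0.0426, a part of the glycine cleavage system, lowest.

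**Figure D4:**
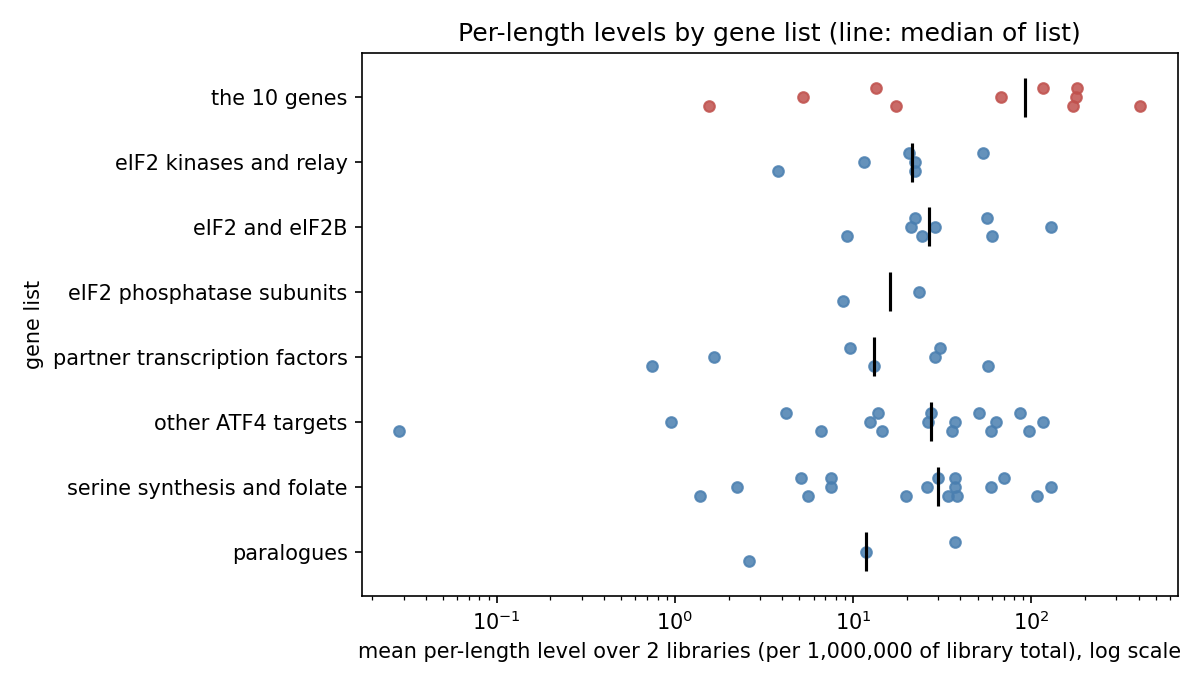
Mean per-length level over the 2 libraries (per 1000000 of the library total, log scale) of the 10 genes and of the genes of 7 lists, with the list median as a line. The 10 genes have a median of 92.2 and range from 1.55 to 410, and FGF21 is the lowest point at 0.0283.

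ATF4 and its partners bind the C/EBP-ATF response element. The letters TGATGNAA were searched on both strands in RefSeq windows from 250 bases before to 50 after a RefSeq start site of the gene (GRCh38). Of the 9 genes with a window, 2 held the motif, against 4.46% of all 27305 genes with a window; SHMT2 has no window in the table. The motif, in capitals, is shown with its surroundings for both genes:
ASNS, chr7:97872458-97872487, minus strand: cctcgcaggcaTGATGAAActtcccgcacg
CHAC1, chr15:40953251-40953280, plus strand: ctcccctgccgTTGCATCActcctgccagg
It lies 68 bases before that RefSeq start site in ASNS, in the direction of the gene, and 209 bases before it in CHAC1, on the opposite strand. Both matches lie within the GENCODE bounds of their genes, chr7:97851677-97872542 for ASNS and chr15:40952962-40956512 for CHAC1, since some annotated transcripts start further upstream. The ER stress response element, CCAAT followed after 9 bases by CCACG, was searched in the same way and found in 0 of the 9 windows and in 0.0916% of genes. A match describes the letters and is no evidence of binding.

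The gene totals were also compared between the libraries. On the scale of log2(normalised count + 1), replicate 2 minus replicate 1, the differences ran from -0.46 for MTHFD2, -0.40 for ASNS and -0.38 for PSAT1 to 0.24 for TRIB3 and 0.53 for CHAC1. The other values were -0.25 for DDIT3, -0.19 for ATF5, -0.17 for ATF4, 0.05 for SHMT2 and 0.13 for PHGDH. None of the 10 passed 2-fold, against 5.23% of 19110 genes averaging 10 or more normalised counts (2.95% higher and 2.29% lower in replicate 2), and none of the 59 list genes with that mean did. That share depends on the count. The 5 to 95% range of the difference was -1.23 to 1.32 for genes averaging 10 to 30 normalised counts. It was -0.57 to 0.52 for those averaging 300 to 1000. The lowest mean of the 10 genes was 69.9, for ATF5. The median absolute difference was 0.25 over the 10 genes and 0.28 over all 19110. Against genes of like total, the difference of MTHFD2 was larger than that of 91.2% of them and that of SHMT2 larger than that of 10.2%. The same transcript led in both libraries in all 10 genes, while the leader differed in 18.5% of 14518 genes with several transcripts. Its share was over 10 percentage points lower in replicate 2 in ASNS, PHGDH and PSAT1, 3 of the 10 against 29.5% of all such genes.

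**Figure D5:**
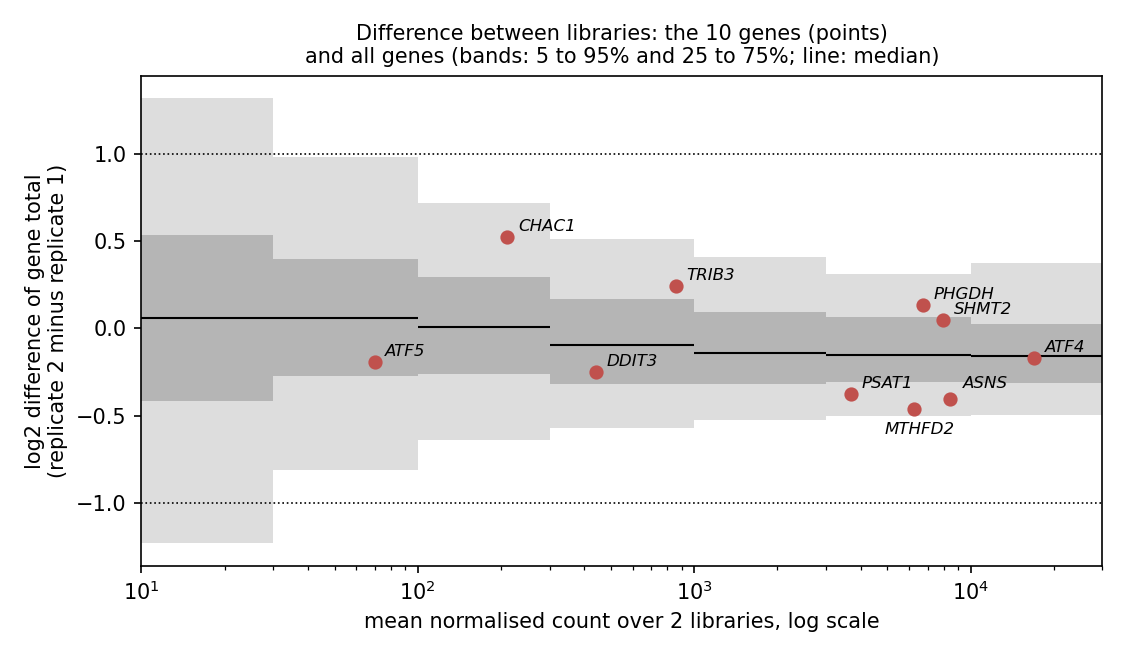
Difference of gene totals between libraries (log2, replicate 2 minus replicate 1) against mean normalised count (log scale) for the 10 genes (points) and all genes (light band 5 to 95%, dark band 25 to 75%, line median). All 10 points lie between -0.46 and 0.53, inside the dotted lines at 2-fold.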

How the data were processed

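The deposited tables gave an estimated count per transcript, made by the authors with RSEM, and a second value, per the file headers EB-Seq-Normalised, a signal equal to the estimated count divided by a size factor of 0.945 (replicate 1) or 1.08 (replicate 2). The submitters' processing notes name FastQC, STAR 2.7.0d, RSEM 1.3.3 and R 3.6.3. The strand setting is not given in the sources used here. Tables that repeat the METTL8 transcripts were not used.

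Identifiers without version were matched to GENCODE release 44 (GRCh38): 202217 of 206696 transcripts matched, holding 96.9% and 96.8% of the counts, and of the 117 transcripts of the 10 genes 105 had the same version. Lengths and sequences are those of GENCODE, so 12 may differ from the models counted. RSEM divides shared reads between transcripts, so shares of near-identical transcripts are uncertain, as are reads shared with pseudogenes and overlapping genes. No effective length was used. Levels, shares, exact intervals and motif searches were computed with Python 3.11.15, pandas 2.3.3, scipy 1.17.1 and numpy 2.4.6. The calls of gene totals over 2-fold apart and of differing leaders were run on simulated independent Poisson counts with planted changes. That simulation held no division of shared reads between transcripts and no variation between cultures. It therefore cannot tell how often these make a total or a leader differ. The rule for pairs of genes was not part of that simulation. Transcripts were named from a mean share of 10% or when leading; from each list the highest 2 and the lowest 2 genes were named. Paralogues SHMT1, MTHFD1 and MTHFD2L were named for their pairs, and overlapping genes after their values were seen. The members and lists were chosen with earlier results of these data known.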

Additional observations from a re-analysis of the deposited data

How the results depend on the processing

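The median per-length level of the 10 genes, 92.2, was 50.4 with the union of exon lengths, 148.8 with protein-coding transcripts only, 280.4 with the library total over protein-coding transcripts only and 48.4 with length minus 200 bases. The median share of the leading transcript, 69.0%, was 65.3% per length, 82.5% within protein-coding transcripts, for the 8 genes whose leader is coding, 70.1% with transcripts above 0.1 estimated counts in both libraries, and 72.2% to 73.0% with either library alone. The 1000 genes over 2-fold apart became 4960 with a mean of at least 1 and 150 with a mean of at least 100, and the 2688 genes whose leader differed became 1789 with a mean of at least 100; the number of genes tested changes with the mean. On the log2 scale, the order reversed for DDIT3 over TRIB3 (-0.96) and TRIB3 over TRIB2 (-0.23) by summed normalised count, for PHGDH over MTHFD2 (-0.85), PHGDH over PSAT1 (-1.19) and MTHFD2 over PSAT1 (-0.34) with the union of exon lengths, and for SHMT2 over MTHFD2 (-0.087), SHMT2 over PSAT1 (-0.52) and MTHFD2 over PSAT1 (-0.43) with protein-coding transcripts only. The pairs among PHGDH, ASNS and SHMT2, which were not called at first, are not in this list. The cause of the reversals was not tested. No difference between the libraries of the 10 genes changed sign with counts scaled to the library total, with a pseudocount of 0.1 or over protein-coding transcripts, but the per-length level of ATF5 was 1.54 and 1.55, against a lower normalised count in replicate 2. No paired analysis was possible because there was 1 group. ATF5 and CHAC1 rest on the fewest counts.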
